A study of Mus musculus with 8 samples.

Results

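The CpGs of extreme coverage were 4000 autosomal CpGs whose reads, summed over 8 libraries, lay in the top 1% of the 441994 autosomal CpGs that had at least 10 reads in every library. The threshold fell at 502 summed reads. Of the 4440 CpGs that reached it, 440 lay in a stretch of chromosome 17 around a copy of the 18S ribosomal RNA gene (chr17:39841354-39853202) and were set aside. The CpGs were thus selected on read depth alone. Those within 500 bp of each other were joined, which gave 829 loci, of which 133 held 1 CpG. Coverage chose these loci, so every coverage value below is a description without a test, while their methylation level was not used in the choice.

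The libraries came from reduced representation bisulfite sequencing (RRBS) of nephron progenitor cells, the Six2-expressing cells from which nephrons form, sorted as GFP-positive cells from kidneys of CD1 mouse embryos at embryonic day E17.5. The calorie restricted diet (CRD) group had 4 libraries, from embryos whose dams received 70% of the average daily food intake, given once daily in pregnancy. The unrestricted diet (URD) group had 4 libraries, from embryos of dams fed without restriction. All embryos of both groups were heterozygous for the transgene Tg(Six2-EGFP/cre), in which Six2 sequence drives GFP and Cre, on an outbred background with wild-type dams of 8 to 10 weeks. Both sexes were used together. Whether each library held 1 litter or several pooled is not stated, so p-values measure the spread between these libraries, which may be in part technical. Depth ranged from 16045992 to 37305007 reads at CpG cytosines per library. Fewer cells carrying a mark and less of the mark per cell cannot be told apart in these sorted bulk samples.

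RRBS cuts genomic DNA with MspI at CCGG and sequences the short fragments, so that reads start at fixed places and stack there. A sequence present in many genomic copies, or in more copies in the animal than in the assembly, can pile its reads onto the place where the aligner puts them. Satellite arrays, transposon families and ribosomal RNA genes are known for this, and most repeats of the first kinds are heavily methylated in mammalian cells. Promoter CpG islands are mostly unmethylated and are also covered well by this assay.

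Promoter sequences show the kinds of place that passed the threshold. Of the 32851 promoter windows of 300 bases in the RefSeq table (build GRCm38.p6), 108 held at least 1 of these CpGs, and 105 of the 108 had a level below 20%. All 1300 CpGs measured in the 108 windows fell on a CG of the printed strand. CCGG, searched on both strands, which read alike, and with no other motif, was in 108 of 108 windows. It was in 52.8% of all windows and in 99.9% of the windows with any shared CpG. The Six2 window is given as an unmethylated promoter with up to 701 summed reads at a CpG, the window of the gene model Gm40371 as the one with the most such CpGs, the Tmem267 window as a CpG-dense methylated one, and that of LOC115490388 because it belongs to a gene next to one of the deepest loci. Capitals mark the CpGs of extreme coverage.
Six2 (chr17:85688205-85688504, minus strand): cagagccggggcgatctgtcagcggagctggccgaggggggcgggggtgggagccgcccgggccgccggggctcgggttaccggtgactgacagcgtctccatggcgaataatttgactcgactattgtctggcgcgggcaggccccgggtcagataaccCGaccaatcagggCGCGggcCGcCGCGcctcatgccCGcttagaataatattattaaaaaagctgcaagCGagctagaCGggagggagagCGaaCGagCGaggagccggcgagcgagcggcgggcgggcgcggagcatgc
Gm40371 (chr6:47651271-47651570, minus strand): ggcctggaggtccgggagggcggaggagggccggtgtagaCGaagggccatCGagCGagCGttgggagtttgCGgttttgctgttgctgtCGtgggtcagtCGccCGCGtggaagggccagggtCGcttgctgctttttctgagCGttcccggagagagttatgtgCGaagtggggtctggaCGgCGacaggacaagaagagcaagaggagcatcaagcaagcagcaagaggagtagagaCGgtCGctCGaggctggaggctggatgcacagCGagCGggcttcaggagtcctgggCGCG
Tmem267 (chr13:119488223-119488522, plus strand): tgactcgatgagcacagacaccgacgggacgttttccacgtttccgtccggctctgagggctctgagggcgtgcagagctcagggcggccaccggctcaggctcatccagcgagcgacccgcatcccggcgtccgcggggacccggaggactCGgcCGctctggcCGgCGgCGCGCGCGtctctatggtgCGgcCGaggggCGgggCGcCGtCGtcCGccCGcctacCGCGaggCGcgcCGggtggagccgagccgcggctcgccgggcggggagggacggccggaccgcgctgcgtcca
LOC115490388 (chr6:3182866-3183165, plus strand): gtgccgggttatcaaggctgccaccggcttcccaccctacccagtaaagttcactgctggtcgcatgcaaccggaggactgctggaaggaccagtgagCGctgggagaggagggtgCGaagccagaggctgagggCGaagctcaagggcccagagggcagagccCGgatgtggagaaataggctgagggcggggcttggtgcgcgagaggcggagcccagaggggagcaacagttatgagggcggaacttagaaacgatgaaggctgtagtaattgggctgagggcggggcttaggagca

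At the 12 CpGs marked in Six2, the level was 0.0726% ± 0.0504 in CRD libraries and 0.0450% ± 0.0566 in URD libraries (SD, n = 4 each). The 21 marked CpGs of Gm40371 had 1.09% ± 0.112 in CRD and 1.04% ± 0.171 in URD libraries. The 20 marked CpGs of Tmem267, which codes for a transmembrane protein, had 83.4% ± 4.51 in CRD and 82.9% ± 1.89 in URD libraries. The 4 marked CpGs of LOC115490388 had 14.03% ± 2.59 in CRD and 17.1% ± 4.59 in URD libraries. Levels at these promoters thus ran from near 0 to over 80%, and in each of them the groups overlapped.

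A second set of sequences shows what a shared sequence looks like. Of the 108 windows, 4 (3.70%) held a stretch of 30 bases that occurred in another window at least 5000 bp away, against 2.00% of the 7553 windows with shared CpGs but none of extreme coverage. The window of the chromosome 13 gene model Gm46428 shared such stretches with 15 other windows, most of all with that of Gm26715. Capitals mark the bases that Gm46428 and Gm26715 share in runs of 30 or more, 230 of 300 in each, in opposite orientation.
Gm46428 (chr13:66519416-66519715, plus strand): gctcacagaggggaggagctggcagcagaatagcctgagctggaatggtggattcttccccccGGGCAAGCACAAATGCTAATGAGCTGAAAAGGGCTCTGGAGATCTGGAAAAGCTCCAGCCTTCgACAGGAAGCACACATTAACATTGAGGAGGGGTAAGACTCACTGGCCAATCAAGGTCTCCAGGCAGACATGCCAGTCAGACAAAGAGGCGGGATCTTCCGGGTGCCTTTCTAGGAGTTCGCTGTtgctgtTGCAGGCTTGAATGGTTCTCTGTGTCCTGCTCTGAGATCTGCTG
Gm26715 (chr13:66349156-66349455, plus strand): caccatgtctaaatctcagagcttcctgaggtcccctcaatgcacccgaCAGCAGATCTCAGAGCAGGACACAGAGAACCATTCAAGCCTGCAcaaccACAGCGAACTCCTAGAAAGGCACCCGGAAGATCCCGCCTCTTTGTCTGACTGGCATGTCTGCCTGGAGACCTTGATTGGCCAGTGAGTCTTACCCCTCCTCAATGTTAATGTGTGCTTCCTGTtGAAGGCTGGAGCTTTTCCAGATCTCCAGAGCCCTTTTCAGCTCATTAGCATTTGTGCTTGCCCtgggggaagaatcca

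The Gm46428 window held 2 CpGs of extreme coverage, with 47.1% ± 6.41 methylation in CRD and 38.4% ± 6.62 in URD libraries. The table holds promoters only, so copies elsewhere in the genome were not counted.

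Most loci of extreme coverage lay just above the threshold. The 30 CpGs at exactly 502 summed reads had a mean level of 1.07%, and the 44 CpGs just outside, at 501 reads, had 24.8%. CpGs of a locus share reads, so these are not independent places, and the CpGs of extreme coverage averaged 26.8% in both groups. The median CpG had 565 summed reads, against 245 for the other shared CpGs. In 521 loci the deepest CpG had at most 600 summed reads, in 216 it had over 600 and up to 1000, in 68 over 1000 and up to 3000, and in 24 more than 3000. The maximum was 250223 reads. The 24 deepest loci held 38.8% of all reads at CpGs of extreme coverage.

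Methylation level differed with depth. The median locus level was 0.471% in the shallowest of these bands, 26.9% in the next, 85.6% in the band up to 3000 reads and 91.6% in the deepest. In the shallowest band 80.4% of loci were below 20% and 12.1% above 80%. In the deepest band 5 of 24 loci were below 20% and 15 above 80%. Gene bodies held 65.6% of the loci in the shallowest band and 37.5% in the deepest. Over all 829 loci, 550 were below 20%, 196 above 80% and 83 in between.

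**Figure D1:**
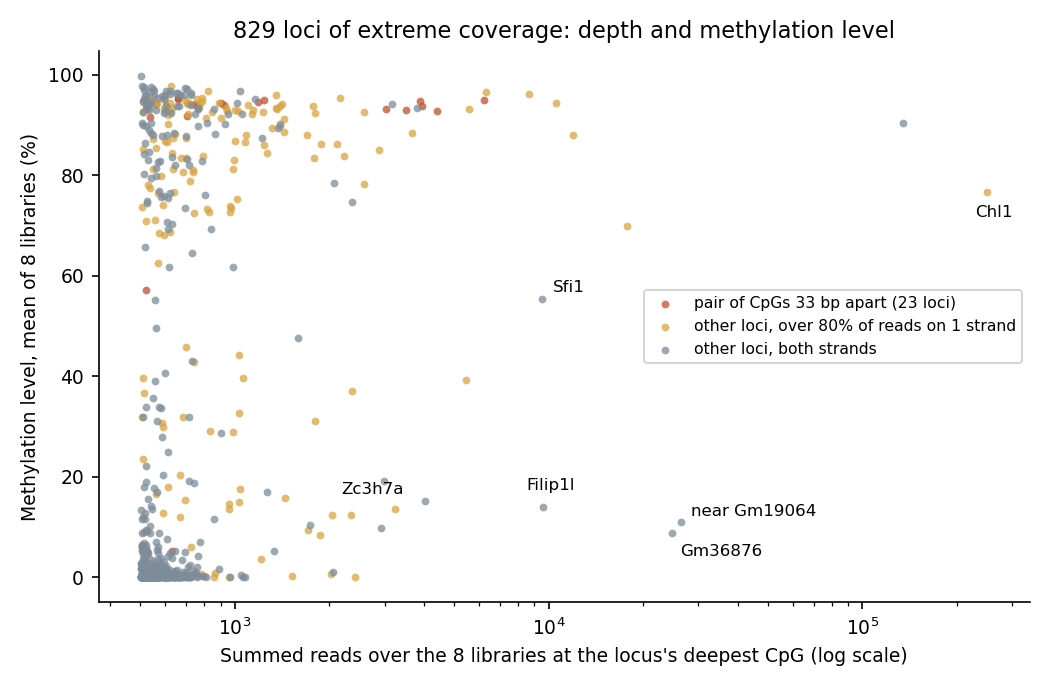
Each point is 1 of the 829 loci: the x axis gives the summed reads of its deepest CpG on a log scale and the y axis its methylation level, the mean of 8 libraries, in percent. Shallow loci lie mostly near 0%, most loci with more than 3000 reads lie above 80%, and 5 of the deepest lie below 20%.

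Deep loci stood out from their surroundings and often had reads on 1 strand. The deepest CpG had a median of 2.06 times the summed reads of other shared CpGs within 5 kb in the shallowest band and 30.8 times in the deepest, where 7 of 24 loci had such neighbours at all. Of the 4000 CpGs, 890 (22.3%) had less than 20% or more than 80% of their reads on the forward strand, against 6.38% of the other shared CpGs. This one-sided coverage was seen at 12 of the 15 deepest loci that were above 80% methylated and at 1 of the 5 that were below 20%. In Cdk15, a cyclin-dependent kinase gene, 99.9% of the reads of a 5-CpG locus (chr1:59347239-59347475) came from the forward strand.

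The spacing of CpGs along the loci recurred elsewhere more often than that of other CpGs. Of 293 runs of 8 consecutive CpGs of extreme coverage, 14.3% had the same 7 spacings at another place over 500 bp away, against 0.859% of 93142 runs of other shared CpGs. Runs of 5 CpGs recurred in 62.6% against 36.8%, and runs of 11 CpGs in 19.5% against 0.401%. By locus, 16 of 101 with such a run had a recurring one. They were 0 of 55 loci with at most 600 summed reads, 6 of 29 with up to 1000, and 10 of 17 with more. Spacing is a proxy for sequence, since no genome was at hand to count copies. The other loci held no run of 8 CpGs and could not be assessed in this way. Shorter series were shared by shallow loci too: 4 loci with 12 and 14 bp between their 3 CpGs had peaks of 512 to 601 summed reads and levels of 93.6 to 95.3%.

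The most widespread spacings belonged to methylated loci. A 16-CpG locus on chromosome 9 (chr9:40254287-40254579) shared its run with 221 other places and had 93.2% methylation. An 18-CpG locus of 84.5% on chromosome 1 shared the pattern with 225 places. A chromosome 3 locus of 88.4% (chr3:23307788-23307886) shared its own with 176. In Grid1, a glutamate receptor delta gene, a 15-CpG locus of 80.7% recurred at 112 places. Among loci of exactly 2 CpGs, 23 of 145 (15.9%) had them 33 bp apart, against 158 of 8712 (1.81%) among the other shared loci of 2 CpGs, and the next most common spacing occurred in 5 loci. These 23 loci lay on 14 chromosomes, 20 of them were above 90% methylated, and 6 were among the 24 deepest. Series of 3 or more CpGs with identical spacing joined 50 of the 551 loci with that many CpGs. Of these 50 loci, 38 were above 80% methylated, and of all 551 loci, 125 were.

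The deepest loci above 80% methylation had nearly the same level in every library. Over these 15 loci, levels in single libraries ran from 86.1 to 97.0%, and the range across the 8 libraries had a median of 1.60 percentage points and a maximum of 3.30. The largest absolute difference between group means was 0.857 points. Their dispersion had a median of 1.06 and a maximum of 3.41. It is 1 where libraries vary only as counting of independent CpG calls would make them. CpGs of a locus share reads, so counting alone can raise it above 1, and more so with many CpGs. The 5 deepest loci below 20% were different: the range across libraries had a median of 10.1 points, and the dispersion ran from 17 to 583. The part of CpG number in the dispersion was not tested. Libraries thus varied little at methylated deep loci and much at weakly methylated ones.

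The deepest CpG of all lay in Chl1, a neural cell adhesion gene (chr6:103649055-103649177). It had 250223 summed reads, while the other 2 CpGs of the locus had 1685 and 1360. The locus had levels of 77.0, 74.9, 77.0 and 76.7% in CRD libraries, against 77.2, 77.8, 75.5 and 77.0% in URD libraries. The groups overlapped, and the difference of -0.488 points had an adjusted p of 0.844 in the quasi-binomial test. The locus took 0.176 to 0.270% of the reads at shared CpGs, depending on the library.

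A pair of loci on chromosome 2, at 35343 and 39913 bp from the nearest gene model, Gm33780, were also among the deepest. The deeper one (chr2:98666272-98667256, 15 CpGs, up to 134754 summed reads) had 90.3% ± 0.309 in CRD libraries and 90.5% ± 0.402 in URD libraries. The other (chr2:98662264-98662686, 10 CpGs) had 69.7% ± 1.07 in CRD and 70.3% ± 0.713 in URD libraries. Neither was called, with adjusted p of 0.844 at each. In Cdk15 the levels were 94.2, 94.3, 94.7 and 94.5% in CRD libraries, against 94.5, 94.4, 94.6 and 94.4% in URD libraries, a range over all libraries of 0.555 points.

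Among the 24 deepest loci, the largest difference between diets was at a weakly methylated one. It lay in Zc3h7a, a gene for a CCCH zinc-finger protein, where 16 CpGs lie in 73 bp (chr16:11144050-11144122). Levels were 27.4, 19.4, 17.97 and 18.4% in CRD libraries, against 11.4, 10.1, 8.62 and 8.68% in URD libraries. Every CRD library was above every URD library. The mean was 20.8% ± 4.45 in CRD and 9.71% ± 1.34 in URD libraries (SD, n = 4 each), a difference of 11.1 points with an adjusted p of 0.00147 in the quasi-binomial test. At its deepest CpG, CRD replicate 4 had 335 reads and 15.5% (95% Wilson interval 12.04 to 19.8%), and URD replicate 3 had 178 reads and 7.30% (4.32 to 12.1%). Those intervals cover counting error only.

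The Zc3h7a call depended on how the dispersion was estimated. Its own dispersion was 67.2, but the locus counts add 16 CpGs that share reads, which raises this value. At its CpGs taken singly the dispersion ran from 3.18 to 14.8, so the libraries spread beyond read counting there too. The adjusted p was 0.0707 with a prior taken from the loci of extreme coverage alone, 0.0854 with edgeR, 0.786 with limma and 0.986 without moderation. With any 1 library left out the call held, and the difference ran from 8.86 points, without CRD replicate 1, to 12 points, without CRD replicate 3. The share of reads that fell on the locus moved with its level. It was 0.0846, 0.0610, 0.0450 and 0.0473% in CRD libraries, against 0.0449, 0.0386, 0.0204 and 0.0387% in URD libraries. CRD replicate 1 was highest and URD replicate 3 lowest in both level and share, and the part of the share in the level was not tested.

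**Figure D2:**
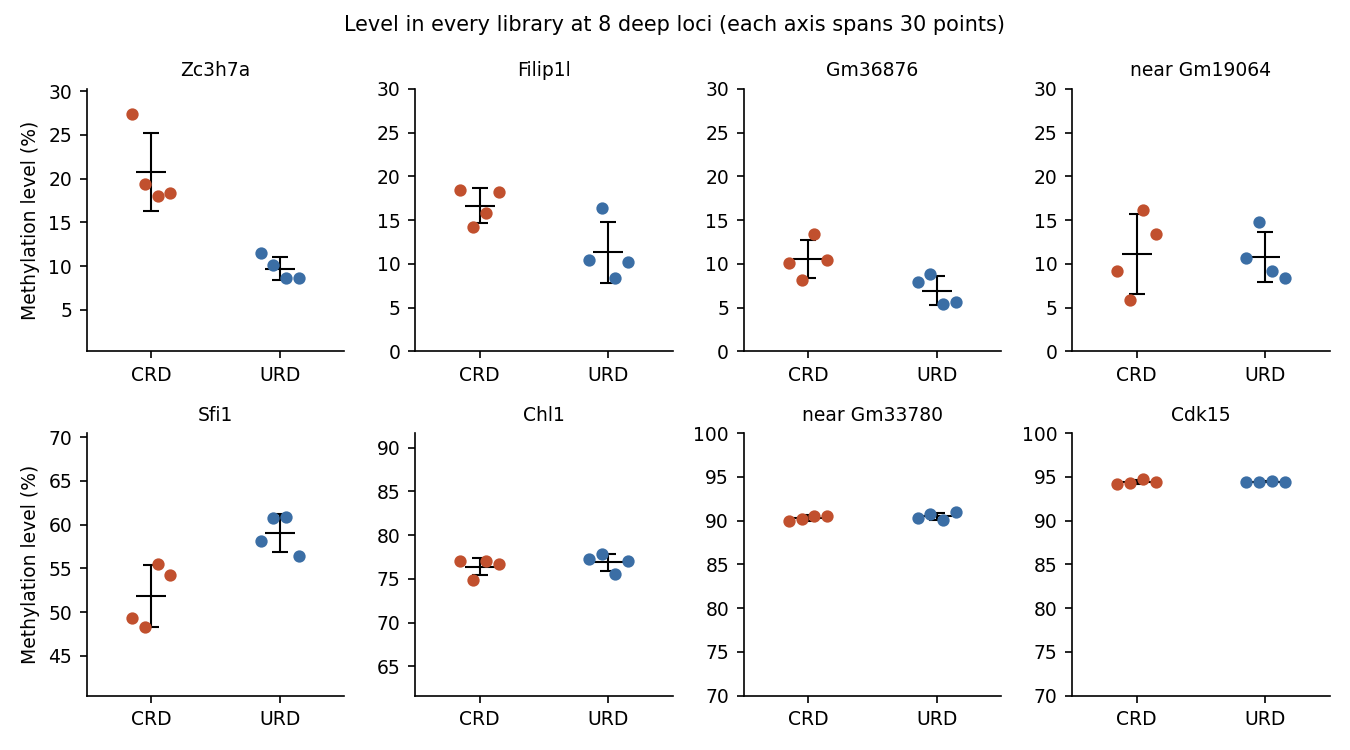
Points are libraries, in percent methylation, with the CRD group left of the URD group at each of 8 loci, and bars give the mean and SD of 4 libraries. The groups do not overlap in Zc3h7a and Sfi1, and levels hardly vary near Gm33780 and in Cdk15.

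Smaller differences with overlapping groups were seen at other weakly methylated loci. In the gene model Gm36876 (chr11:109011776-109011929, 16 CpGs, up to 24644 summed reads) levels were 10.2, 8.13, 13.4 and 10.4% in CRD libraries, against 7.95, 8.82, 5.38 and 5.68% in URD libraries. The lowest CRD library lay below the highest URD library, and the difference of 3.57 points had an adjusted p of 0.254. Filip1l codes for a filamin-interacting protein and overlaps Cmss1. There (chr16:57391288-57391502, 16 CpGs) the levels were 18.5, 14.2, 15.9 and 18.2% in CRD libraries, against 10.5, 16.4, 8.34 and 10.2% in URD libraries. The groups overlapped through URD replicate 2, and the difference of 5.33 points had an adjusted p of 0.390. Without that library the difference was 7.01 points with an adjusted p of 8.99e-06, and the Gm36876 difference was 4.19 points with an adjusted p of 0.0165. URD replicate 2 was the highest URD library at both loci, so leaving it out could only widen these differences. Without CRD replicates 1 and 2 together the Gm36876 difference was 4.96 points with an adjusted p of 0.0455. Of 24 alternatives each, these were the only calls, 1 for Filip1l and 2 for Gm36876.

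The locus near Gm19064 on chromosome 6 (chr6:3201425-3201558, 14 CpGs) had the most reads per CpG among weakly methylated loci, up to 26360. Levels there were 9.14, 5.86, 16.2 and 13.4% in CRD libraries, against 10.7, 14.8, 9.20 and 8.35% in URD libraries. The URD range lay inside the CRD range, the difference was 0.363 points with an adjusted p of 0.985, and the dispersion of 583 was the highest of the named loci. A run of its CpG spacings (7, 10, 38, 7, 8, 6 and 11 bp) recurred at 1 other place, inside the 18S ribosomal copy on chromosome 17.

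Sfi1, which codes for a centrin-binding protein of the spindle pole, had lower levels in CRD libraries, without being called. Its 19-CpG locus (chr11:3193348-3193597) had 49.3, 48.2, 55.5 and 54.2% in CRD libraries, against 58.1, 60.8, 60.9 and 56.4% in URD libraries. All CRD libraries were below all URD libraries. The difference of -7.22 points had an adjusted p of 0.0644. It was -8.45 points with an adjusted p of 0.00271 without CRD replicate 3, and -8.10 points with an adjusted p of 0.0194 without URD replicate 4. Of 24 alternatives, Sfi1 was called under these 2 only. CRD replicate 3 was the highest CRD library and URD replicate 4 the lowest URD library, so leaving out either could only widen the difference. The read share of the locus also differed between libraries, at 0.0441, 0.0339, 0.0790 and 0.0644% in CRD libraries, against 0.0875, 0.0969, 0.0866 and 0.0763% in URD libraries. Within the locus, CpG levels averaged from 0 to 89.6%. The CpG at 0 was the first of the locus, and all its reads came from the reverse strand. With reads on both strands, the CpG at chr11:3193558 had 5.44 to 9.10% across libraries and that at chr11:3193465 had 81.6 to 93.4%. CpGs of the locus covered on both strands thus differed far more than the diets did.

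**Figure D3:**
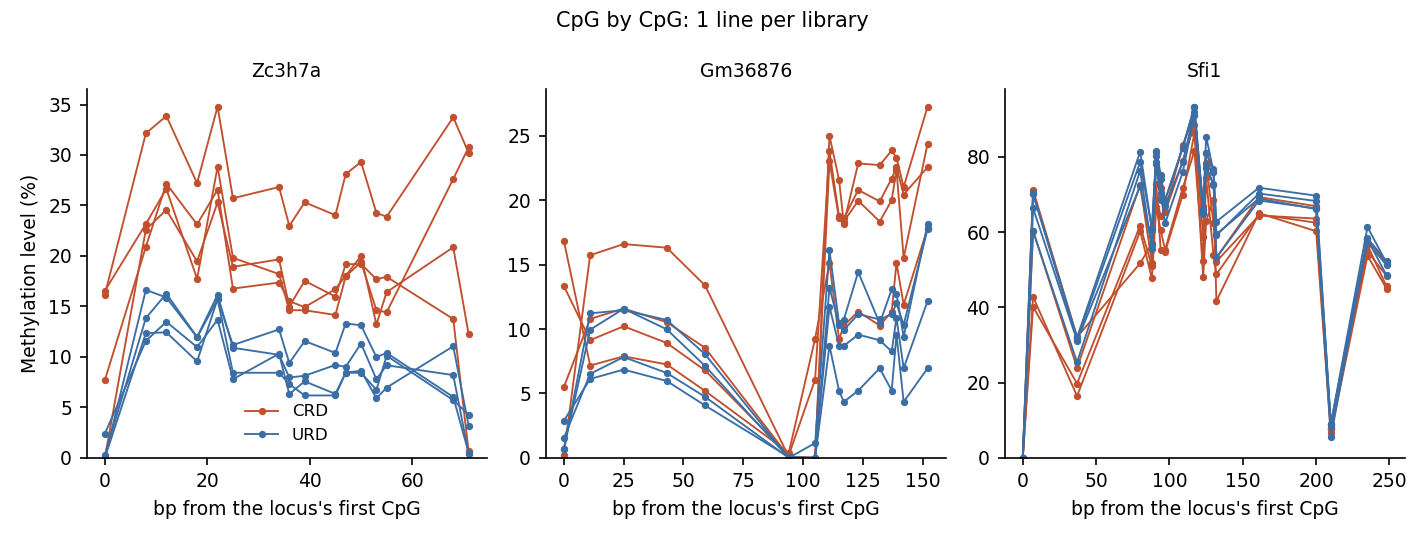
Each line is 1 library, CRD or URD by colour, with the methylation level in percent of each CpG against its distance in bp from the first CpG of the locus. In Zc3h7a the CRD mean lies above the URD mean at all 16 CpGs, and in Gm36876 the lines spread most after about 100 bp. In Sfi1 the lines have a similar jagged profile, but CRD replicate 3 departs from it at 80 bp, where it is lowest (51.7%).

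None of the 5 loci with the most CpGs was called. The largest, 61 CpGs on chromosome 12 (chr12:20196482-20197161), had 0.280% ± 0.163 in CRD and 0.725% ± 0.2997 in URD libraries. No CRD library reached the lowest URD library, and the adjusted p was 0.302. The Tmem267 locus (chr13:119488375-119489087, 44 CpGs) had 78.2% ± 3.82 in CRD and 78.6% ± 2.64 in URD libraries, and 3110070M22Rik overlaps it. A 23-CpG locus near Gm7762 on chromosome 13 had 12.9% ± 2.29 in CRD and 10.4% ± 4.79 in URD libraries. The 23 CpGs in H2-D1, a class I histocompatibility gene, had 0.137% ± 0.0722 in CRD and 0.110% ± 0.133 in URD libraries. Adjusted p-values of these last 3 loci were 0.869, 0.887 and 0.984. Without URD replicate 2 the difference near Gm7762 was 4.67 points with an adjusted p of 0.0390. Of 24 alternatives, that locus was called under this 1 only. URD replicate 2 was the highest URD library there, so leaving it out could only widen the difference.

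Ribosomal DNA on chromosome 17, which was set aside, gives a comparison for the named loci. The read-weighted level there was 12.9, 8.15, 15.3 and 14.7% in CRD libraries, against 10.4, 12.8, 7.30 and 8.08% in URD libraries, a difference of 3.14 points (exact permutation p = 0.143). Over the 8 libraries this level was set against that of each of 18 named loci. For Gm36876 Pearson's r was 0.912 (exact permutation p = 0.000471, adjusted over 18 relations 0.00848) and Spearman's rank correlation was 0.976 (exact permutation p = 0.000397, adjusted 0.00714). Without the 2 libraries farthest from the median, CRD replicate 3 and URD replicate 3, r was 0.868. Deviations from the group means correlated at 0.904, and each diet group alone holds too few libraries for a value.

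Other relations to the ribosomal level did not pass the adjusted threshold. Pearson's r was 0.819 for Filip1l, 0.816 for the locus near Gm19064 and 0.812 for the one near Gm7762, each with an adjusted exact permutation p of 0.0991. Spearman's rank correlation was 0.810, 0.667 and 0.810 for these loci, with adjusted exact permutation p of 0.131, 0.298 and 0.131. After leaving out the same 2 libraries, r was 0.807, 0.776 and 0.725. Zc3h7a had r = 0.491 (exact permutation p = 0.212, adjusted 0.476) and a Spearman rank correlation of 0.595 (exact permutation p = 0.132, adjusted 0.298). Sfi1 had r = -0.101 (exact permutation p = 0.796, adjusted 0.895). Among methylated loci, Tmem267 had r = 0.770 (exact permutation p = 0.0353, adjusted 0.127), Chl1 had r = 0.580 (exact permutation p = 0.147, adjusted 0.440) and Cdk15 had r = 0.157 (exact permutation p = 0.714, adjusted 0.895). Deviations from the group means correlated at 0.951 for Tmem267, 0.931 for the locus near Gm19064 and 0.892 for Chl1, against 0.904 for Gm36876. They correlated at 0.790 for the locus near Gm7762 and 0.745 for Filip1l. Of the 18 relations, that of Gm36876 was the 1 that passed after adjustment, and whether it differs from the others was not tested.

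**Figure D4:**
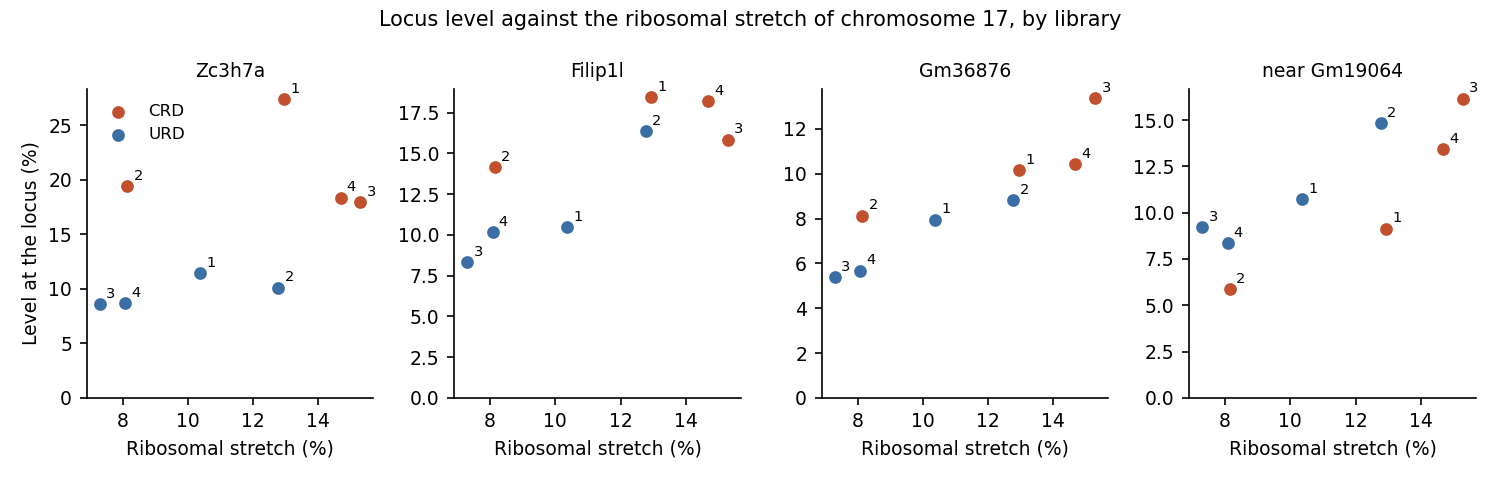
Each point is a library, numbered by replicate and coloured by diet, with the level of the ribosomal stretch on the x axis and that of the locus on the y axis, both in percent. Gm36876 rises with the ribosomal level (r = 0.912), and the 4 CRD libraries of Zc3h7a lie above its 4 URD libraries.

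Across all loci, Zc3h7a was the 1 call among 763 loci of extreme coverage that could be tested. The other 66 had no methylated read in any library and gave no test. In the same fit 8 of 49839 loci were called, which is 0.0161% of those tested, and 0.00201% were called higher in CRD libraries, Zc3h7a alone. At an unadjusted p below 0.05 there were 72 of 763 loci of extreme coverage (9.44%), 45 higher and 27 lower in CRD libraries, beside 6.14% of all loci. Groups did not overlap at 28 of the 829 loci, 15 higher and 13 lower in CRD, where 2.42% of all loci showed this. The median difference was -0.0162 points, close to the -0.0128 points of the other loci, and the median absolute difference was 0.424 points against 1.12 points. Loci of extreme coverage were deeper by choice, and the part of depth and level in these shares and differences was not tested. No call was made with edgeR (54 loci at an unadjusted p below 0.05), limma (44) or no moderation (30). Leaving out CRD replicate 3, URD replicate 2 or URD replicate 4 gave 4, 6 and 2 calls.

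Single CpGs gave more calls, most of them in the same gene. Of 2665 CpGs of extreme coverage tested, 25 (0.938%) were called, beside 0.0955% of all shared CpGs tested. They were 21 higher and 4 lower in CRD libraries, where 0.0574% and 0.0381% of all tested CpGs were called in these directions. All 16 CpGs of Zc3h7a were among them, and CpGs of a locus share reads and are not independent. The other 9 calls lay in 7 loci, which are named here because their calls were seen. Higher in CRD libraries were 2 CpGs in Gm36876, 1 in Arhgap21, 1 in Arsb, which codes for arylsulfatase B, and 1 nearest to Gm12182. Lower were 2 nearest to Gm17019, 1 nearest to Gm40404 and 1 in Sfi1. Over all shared CpGs 183 were called, 30 of them in the ribosomal stretch. The part of depth in the shares called was not tested.

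The groups did not overlap at the CpGs in Arsb and nearest to Gm40404 and Gm17019, and overlapped at those in Sfi1, in Arhgap21 and nearest to Gm12182. The Arsb CpG averaged 89.9% ± 4.27 in CRD libraries and 74.1% ± 3.06 in URD libraries, with 44 to 122 reads per library and an adjusted p of 0.00994. The Sfi1 CpG averaged 61.5% ± 8.56 in CRD and 77.1% ± 3.85 in URD libraries (adjusted p = 0.000753). In Arhgap21 the CpG averaged 9.54% ± 6.68 in CRD and 2.23% ± 1.09 in URD libraries (adjusted p = 0.00103). The CpG nearest to Gm40404 averaged 0.352% ± 0.704 in CRD and 10.7% ± 2.31 in URD libraries (adjusted p = 0.00198). A further pattern concerned CRD replicate 3 at 4 of the called CpGs, picked after their values were seen. The first Zc3h7a CpG had 16.2, 16.5, 0 and 7.69% in CRD libraries, against 0, 0.298, 0 and 2.40% in URD libraries. The last one had 30.2, 30.8, 0.629 and 12.3% in CRD libraries, against 0.503, 0.413, 4.29 and 3.19% in URD libraries. In Gm36876 the first CpG had 13.3, 16.9, 0.249 and 5.49% in CRD libraries, against 0.670, 0.681, 1.53 and 2.87% in URD libraries. The Arhgap21 CpG had 13.8, 15.1, 0.326 and 8.95% in CRD libraries, against 1.04, 1.58, 3.07 and 3.23% in URD libraries. At all 4 places CRD replicates 1 and 2 were the highest libraries, while CRD replicate 3 lay within or below the URD range. The first Gm36876 CpG had less than 20% of its reads on the forward strand. At the Gm36876 CpGs with 20 to 80% forward reads, CRD replicate 3 lay above every URD library. The same held at the other CpGs of Zc3h7a. The pattern was thus not shared by these loci as a whole, and the part of strand in it was not tested. No CpG was called with limma (223 of extreme coverage at an unadjusted p below 0.05) or without moderation (86). Leaving out CRD replicate 1, CRD replicate 3 or URD replicate 2 gave 14, 47 and 42 calls.

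As a whole these CpGs did not show a detectable diet difference. Their unweighted mean level was 26.8% ± 0.312 in CRD and 26.8% ± 0.194 in URD libraries, a difference of 0.0156 points (exact two-sided permutation p = 0.914, smallest possible 0.0286). They exceeded the other shared CpGs by 10.7 ± 0.203 points in CRD and 10.7 ± 0.108 points in URD libraries (exact two-sided permutation p = 0.571). Weighting by reads gave a lower value in CRD libraries. The read-weighted level was 34.1, 32.5, 40.1 and 38.8% in CRD libraries, against 43.1, 42.1, 42.6 and 39.8% in URD libraries. The difference of -5.54 points had an exact two-sided permutation p of 0.0571, CRD replicates 1 and 2 were lowest, and CRD replicate 3 lay above URD replicate 4.

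Read shares, which were not tested, also differed between the groups, and here without overlap. CpGs above 80% methylation took 25.7, 24.3, 30.0 and 28.1% of the reads at CpGs of extreme coverage in CRD libraries, against 33.9, 32.2, 33.2 and 31.4% in URD libraries. For the other shared CpGs this share was 10.5% ± 1.07 in CRD and 12.2% ± 0.450 in URD libraries. There too the groups did not overlap, with 9.33 to 11.6% in CRD and 11.8 to 12.6% in URD libraries. The separation was thus not particular to CpGs of extreme coverage. In all, CpGs of extreme coverage took 3.51% ± 0.213 of the reads at shared CpGs in CRD and 3.52% ± 0.0757 in URD libraries. Over all shared CpGs the read-weighted level minus the unweighted one was -1.52 ± 1.52 points in CRD and 0.256 ± 0.636 points in URD libraries (exact permutation p = 0.114). Without the CpGs of extreme coverage it was -2.22 ± 1.40 points in CRD and -0.576 ± 0.614 points in URD libraries (exact permutation p = 0.114). The differences of -1.78 and -1.64 points were -2.29 and -2.12 points without CRD replicate 3, where the exact permutation p was 0.0286, the smallest that 3 against 4 libraries can give. CRD replicate 3 was the only CRD library within the URD range in both values. Leaving it out therefore fixed that p, which adds nothing to the p of 0.114. Leaving out the CpGs of extreme coverage changed the difference between the groups little. The ribosomal stretch was still included in these values. Without it and the CpGs of extreme coverage, the difference over all 8 libraries was -1.87 points (exact permutation p = 0.0571).

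The densest group of loci lay around Six2, the gene of the transcription factor that keeps nephron progenitors undifferentiated, and its neighbour Six3. In 13 loci (chr17:85615252-85748987) 92 of 295 shared CpGs were of extreme coverage, and no other bin of 200 kb held more than 3 loci. The 13 loci were shallow, with at most 809 summed reads. CpGs below 20% methylation in this stretch had 1.23, 1.38, 1.38 and 1.30 times the library's median depth at shared CpGs in CRD libraries, against 1.49, 1.48, 1.19 and 1.46 times in URD libraries. Over 500 kb on both sides this ratio was 0.909 to 1.05. For the 9 CpGs of 20% or more it was 1.88 to 2.54 times, against 0.875 to 1.24 times on both sides. These ratios include the CpGs whose depth set the bounds of the stretch and are no independent sign of raised depth. The 203 CpGs of the stretch below the threshold had 1.10, 1.30, 1.04 and 1.05 times the median depth in CRD libraries, against 1.18, 1.02, 0.885 and 1.25 times in URD libraries. This overlapped with 0.962 to 1.40 times on the lower-coordinate side and 0.846 to 1.11 times on the higher-coordinate side. The sorted cells carry a transgene built from a bacterial artificial chromosome with Six2 sequence, and whether its copies supplied reads was not tested.

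Methylation of the Six2 group was low and did not differ by a call. The 12 CpGs at the Six2 start printed above were nearly free of methylation. A 3-CpG locus inside Six2 (chr17:85679326-85679425) had 28.3, 25.7, 27.9 and 30.1% in CRD libraries, against 35.8, 34.3, 31.4 and 34.9% in URD libraries. All CRD libraries were below all URD libraries, with 144 to 272 reads each, and the adjusted p was 0.733. The 2 CpGs of chr17:85657548-85657624, between Six3 and Six2, had 37.0% ± 4.20 in CRD and 34.4% ± 4.61 in URD libraries. Promoter windows of Pax2 and Sall1, other nephron progenitor genes, held shared CpGs but none of extreme coverage, and averaged below 1% in both groups. Cited1 lies on chromosome X and was not analysed here, and Wt1, Eya1 and Osr1 promoters were not used here.

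**Figure D5:**
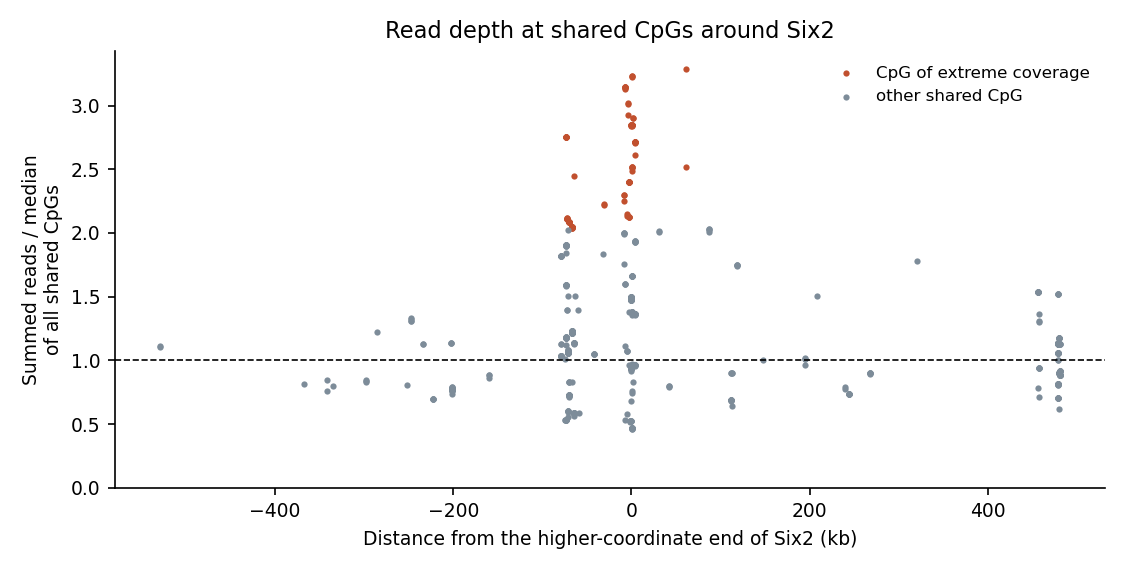
Each point is a shared CpG, with its distance in kb from the higher-coordinate end of Six2 on the x axis and its summed reads over the median of all shared CpGs on the y axis. CpGs of extreme coverage, all above 2 times the median, lie within 100 kb of Six2, and the sides scatter around 1.

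Named classes of multi-copy genes held from 0 to 9 of the 829 loci each. Zinc-finger genes named Zfp held 9 loci (1.09%), beside 1.07% of the other loci. Of tRNA genes, n-TKctt28 held 1 locus (0.121%), beside 0.0780% of the other loci. In a class of 9 listed genes, Sfi1 and Hjurp, which codes for a centromere histone chaperone, held 1 locus each (0.241% together), beside 4 of the other loci (0.00780%). Olfactory and vomeronasal receptor genes held 0, beside 0.113% of the other loci, and small nuclear RNA genes held 0, beside 0.00390%. Ribosomal RNA genes held 0, beside 0.00195% of the other loci, but this 0 cannot show a lack of extreme coverage. In the ribosomal stretch 440 CpGs reached the threshold and were set aside before loci were made. The replication-dependent histone genes and the satellite-linked gene models listed were not under those names in the RefSeq table.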

How the data were processed

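RRBS calls from 8 libraries (4 CRD, 4 URD, grouped by sample title) were used, made from 20 ng of DNA and sequenced as paired reads of 100 bp over several lanes, per the labels. The deposited files list CpG cytosines with a read count and the percent of those reads that the authors called methylated. The submitters' processing notes name Bismark 0.13.1, the build mm10, Trim Galore 0.3.3, cutadapt, methylKit and FastQC, with no settings. Removal of PCR copies is not stated there. The product of count and percent gave the methylated reads, which lay within 0.0488 of a whole number up to 1000 reads, and strands were added. Reads at mitochondrial CpGs were called methylated in 0.0221 to 0.0854% of cases.

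On autosomes, a minimum of 10 reads in each of the 8 libraries was required, and CpGs in the top 1% of summed reads were joined within 500 bp. All other shared CpGs, those of the ribosomal stretch included, were joined in the same way, so that 49839 loci were fitted together. The members, the lists and the tests were chosen with earlier results of these data known. Each locus or CpG was fitted with a logistic (quasi-binomial) model with a term for diet and tested with a likelihood-ratio F test. Its Pearson dispersion, held at 1 or more, was moderated with limma 3.58.1 (R 4.3.3) toward a trend on depth. Benjamini-Hochberg adjustment ran over all loci or CpGs tested, and an adjusted p below 0.05 is a call. Units with no methylated or no unmethylated read were not tested. For 1 value a library, an exact permutation test (two-sided, 70 splits) was used. The fit was tested on simulated data. Alternatives included edgeR 4.0.16 and limma on M-values. Loci were named by rule: the 12 with the most summed reads at 1 CpG, the 5 with the most CpGs, those called, and those in Zc3h7a, Filip1l and Gm36876. Gene positions and promoter sequences came from RefSeq (GRCm38.p6, the coordinates of mm10). No genome sequence was used. Arrays of repeats were not counted in sequence. The tools were Python 3.11.15, numpy 2.4.6, pandas 2.3.3, scipy 1.17.1 and matplotlib 3.10.9.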

Additional observations from a re-analysis of the deposited data

Results flagged for a closer look

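A library far from the other 3 of its group was looked for in 48 groups of 4 values, where chance alone flags about 1 in 20. In Zc3h7a, CRD replicate 1 had a level of 27.4%, while the other CRD libraries had 17.97 to 19.4%. In Chl1, CRD replicate 2 had 74.9%, while the other CRD libraries had 76.7 to 77.0%.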

How the results depend on the processing

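The number of called loci, 1 with the stated fit, was 0 with a dispersion prior from the loci of extreme coverage alone, without moderation, with limma, with edgeR and with the replicate block, and 2 without CRD libraries 1 and 2 together. Leaving out 1 library gave 1 to 6. The number of called CpGs, 25, was 42 with 1 prior common to all units and 55 with the ribosomal stretch counted among them. It was 10 without CRD libraries 1 and 2 together, and 0 without moderation, with limma and with the replicate block. Leaving out 1 library gave 14 to 47. At an unadjusted p below 0.05 there were 57 loci with the prior from these loci alone, 26 loci with the replicate block, and 56 CpGs with it. No pairing by replicate number was seen: deviations of libraries with the same number correlated at -0.0053, -0.0861, -0.0467 and -0.0051. Libraries of different number correlated at -0.0843 to 0.0754. The deviations hold counting spread, so these values cannot exclude a pairing. With the replicate block the Zc3h7a adjusted p was 0.970 and the mean level difference stayed 0.0156 points (exact permutation p = 1).

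The mean level difference of 0.0156 points reversed to -0.0109 with the top 0.5%, -0.0282 with the top 2%, -0.0541 on the reverse strand, -5.54 when weighted by reads and -0.0482 without loci over 3000 summed reads, the last chosen after seeing the data. Leaving out 1 library gave -0.100 to 0.144. The difference between these CpGs and the rest ran from -0.0160 to 0.141 in the same way. The read-weighted minus unweighted difference ran from -2.29 to -1.19 with these CpGs and from -2.12 to -1.10 without them.

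Of 429 alternative values for the 18 named loci, 380 kept direction and call, 38 reversed, 6 gained a call and 5 lost one. The 5 were all Zc3h7a, which was called under 19 of 24 alternatives. Reversals without CRD libraries 1 and 2 together were 0.121 in Cdk15, -0.0450 near Olfr784, 0.301 near Actg1, 2.79 in Tmem267, 0.612 near Gm5960, and 0.368 and 0.0160 at the shallower and deeper loci near Gm33780. On the forward strand they were -4.58 near Olfr784, 0.0318 near Actg1, -0.0394 in H2-D1, 0.363 near Gm33780, -0.0342 near Gm19064, 0.0296 in Gm40371 and 1.000 in Chl1. Tmem267 had 0.00242 on the reverse strand, and H2-D1 had -0.101 with the top 0.5%. Leaving out 1 library gave -0.148 to 0.0367 in Cdk15, -0.254 to 0.168 near Actg1, -1.50 to 1.16 in Tmem267, -0.726 to 0.168 near Gm5960, -0.00995 to 0.0906 in H2-D1, -1.31 to 2.13 near Gm19064, -0.106 to 0.0451 in Gm40371 and -0.944 to 0.00977 in Chl1. The cause of these changes was not tested. Depth limits what levels near 0 or 100% can show, and 4 libraries a group limit every comparison.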

Other observations

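CpGs outside the autosomes that passed the same thresholds were not part of the comparisons above. On chromosome X 171 CpGs did so, with read-weighted levels of 80.8 to 83.7% in CRD libraries and 82.2 to 85.3% in URD libraries. On chromosome Y 65 CpGs did so, with 85.1 to 87.6% in CRD libraries and 88.5 to 89.7% in URD libraries, which do not overlap; this difference was not tested. The unplaced scaffold chrUn_JH584304 held 41 such CpGs, with 30.9, 29.6, 52.2 and 35.5% in CRD libraries, against 47.1, 46.3, 45.6 and 44.3% in URD libraries. On the mitochondrial genome 9 CpGs passed, with at most 0.0861% in any library.

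Windows of 133736 bp, the length of the Six2 stretch, with at least 50 shared CpGs numbered 3098 across the autosomes. The Six2 stretch had 31.2% of its shared CpGs in the extreme class, and 5 windows had as high a share. They lay nearest to Grxcr1 on chromosome 5, at Tmem267 on chromosome 13, nearest to Gm32719 on chromosome 12, at Man2c1 on chromosome 9 and at Cdc14b on chromosome 13. Each of those 5 held 1 to 3 loci, so their share came from few CpG-dense places.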
